A study of Rattus norvegicus with 9 samples.

Results

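High-voltage-activated calcium channels and their alpha2delta subunits were examined as a set of 10 genes in adult rat pinealocytes after knockdown of Lhx4 or Bsx. The set was defined by gene symbol and holds the L-type pore-forming subunits Cacna1f, Cacna1c and Cacna1d, the other pore-forming subunits Cacna1a, Cacna1b and Cacna1e, and the alpha2delta subunits Cacna2d1, Cacna2d2, Cacna2d3 and Cacna2d4. All 10 were found in both of the authors' deposited tables among 26854 genes, and all 10 were among the 14876 genes that carried an adjusted p in both. The family was put together with the log2 fold changes of both tables already known, so the calls below describe those values and are not independent support for a difference between subunit classes.

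Pinealocytes, which make melatonin, were isolated by papain digestion from adult Sprague-Dawley rats and kept in primary culture with serum until the third day. The 9 libraries of total RNA came from 3 samples transfected with an siRNA against Lhx4 (siLhx4), 3 with an siRNA against Bsx (siBsx) and 3 with a non-targeting siRNA (siNT), all at 40 nM. Both targets are homeodomain transcription factors. Each was targeted by 1 siRNA, and the labels do not say whether the triplicates came from separate animals, so p-values measure the spread between these samples, which may be technical.

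High-voltage-activated channels open on strong depolarisation and let calcium into the cell. Each channel is built around 1 pore-forming subunit, which sets the channel type, and carries a cytoplasmic beta subunit and an extracellular alpha2delta subunit that raises the number of channels at the surface. In the rat pineal gland, noradrenaline released at night raises intracellular calcium together with cyclic AMP and so drives melatonin synthesis. Photoreceptors, which share much of their gene expression with pinealocytes, use the L-type channel encoded by Cacna1f at their ribbon synapses.

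The L-type genes are the group set against the rest here, so the start regions of the 3 are shown as RefSeq gives them for the rat assembly GRCr8, from 250 bases before to 50 bases after the gene start and all on the minus strand. The windows are chrX:17568259-17568558 for Cacna1f, chr4:154051699-154051998 for Cacna1c and chr16:5527500-5527799 for Cacna1d. They are printed in lower case with each homeodomain core TAAT, on either strand, in capitals.
Cacna1f: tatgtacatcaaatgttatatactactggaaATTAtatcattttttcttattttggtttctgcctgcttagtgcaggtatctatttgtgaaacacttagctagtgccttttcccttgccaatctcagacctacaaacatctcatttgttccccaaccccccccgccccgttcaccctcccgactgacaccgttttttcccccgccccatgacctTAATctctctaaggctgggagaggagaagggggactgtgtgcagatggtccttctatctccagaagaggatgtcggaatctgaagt
Cacna1c: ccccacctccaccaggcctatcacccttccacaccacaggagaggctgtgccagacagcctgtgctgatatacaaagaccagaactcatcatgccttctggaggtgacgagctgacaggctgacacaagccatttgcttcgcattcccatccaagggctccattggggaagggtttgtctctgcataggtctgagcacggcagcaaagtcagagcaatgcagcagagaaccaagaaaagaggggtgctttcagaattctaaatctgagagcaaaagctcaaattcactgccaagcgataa
Cacna1d: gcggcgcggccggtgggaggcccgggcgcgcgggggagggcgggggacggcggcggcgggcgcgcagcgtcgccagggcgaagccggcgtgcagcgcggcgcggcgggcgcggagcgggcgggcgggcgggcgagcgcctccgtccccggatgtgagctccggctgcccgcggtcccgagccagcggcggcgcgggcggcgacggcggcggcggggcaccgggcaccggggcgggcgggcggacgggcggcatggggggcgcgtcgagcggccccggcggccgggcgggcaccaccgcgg
The Cacna1f window held TAAT at 2 places, starting at positions -219 and -36 from the gene start, the first on the opposite strand. The windows of Cacna1c and Cacna1d held none. Of the 10 genes, 9 matched the RefSeq table with 11 windows, and Cacna1f was the only gene among them with a TAAT, which occurs in 60.6% of all 33469 windows of the same length. The second place reads TAATC, a string looked for after this window was seen, and 22.9% of all windows hold it. The longer strings TAATTA and TAATCC, searched on both strands and each containing TAAT, were in none of the 11 windows, against 5.36% and 7.17% of all windows. Base composition also differed within the L-type group. The Cacna1f window had 46.0% G and C, the Cacna1c window 51.7% and the Cacna1d window 88.7%, where the median of all windows was 51.7%. The windows of the other members ranged from 53.7% in Cacna1e to 79.3% in Cacna2d3.

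Each siRNA lowered its target. Lhx4 had 3420, 3634 and 3551 normalized counts in the siLhx4 libraries, against 18963, 18331 and 19156 in the siNT libraries. The groups did not overlap, and its level was 18.8% ± 0.574 of that with siNT (SD, n = 3; two-sided exact permutation p = 0.1, the smallest that 3 against 3 libraries allow). That SD is of the siLhx4 libraries alone and leaves out the spread of siNT. For Bsx, the group means implied by the authors' deposited tables were 6529 normalized counts with siLhx4, 2447 with siBsx and 11836 with siNT. Bsx was thus lower in both knockdowns, while Lhx4 rose by 10.5% with siBsx in the authors' deposited table (adjusted p = 0.0225, DESeq2).

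Some fibroblast and glial markers and the smooth muscle myosin Myh11 rose with siLhx4, and Myh11 and some markers of those lists fell with siBsx. Over all genes tested, DESeq2's test called 17.7% with siLhx4 and 17.2% with siBsx. Summed over 10 mural and smooth muscle markers, the implied means were 10060.4 normalized counts with siLhx4, 3701 with siBsx and 7223 with siNT, and Myh11 made up most of each sum. Of the 6 tested mural markers, 1 (Myh11) rose with siLhx4 and 2 (Myh11 and Pdgfrb) fell with siBsx. Without Myh11, a choice made after seeing the data, the sums were 1128 with siLhx4, 748 with siBsx and 1023 with siNT, and Acta2, the smooth muscle actin, was at 12.2, 13.7 and 15.3 in the same order. The 10 fibroblast markers summed to 7426, 4708 and 5674 normalized counts in siLhx4, siBsx and siNT, with 4 of 9 tested higher with siLhx4 and 3 lower with siBsx. Over 11 astrocyte and glial markers the sums were 18736 with siLhx4, 12682 with siBsx and 14995 with siNT, where 4 of 9 tested rose with siLhx4 and 4 fell with siBsx. The 8 neuronal markers summed to 48400.3 with siLhx4, 50550.0 with siBsx and 51774 with siNT, most of it Snap25, a vesicle release protein. Snap25 fell by 12.9% with siLhx4 in the authors' deposited table (adjusted p = 4.11e-05, DESeq2). Of the 6 tested neuronal markers, 1 (Snap25) fell and 2 (Map2 and Nefm) rose with siLhx4. With siBsx 0 fell and the same 2 rose. The neuronal splicing factor Rbfox3 was at 4.09, 3.06 and 0.89 in siLhx4, siBsx and siNT and had no adjusted p. The endothelial sum was 1226 with siLhx4, 901 with siBsx and 879 with siNT, and the Schwann sum 1751, 1504 and 1417 in the same order. Of 7 tested endothelial markers, 1 (Plvap) rose with siLhx4 and 0 passed with siBsx. Of 6 tested Schwann markers, 2 (Cnp and Mal) rose with siLhx4 and 1 (Mal) rose with siBsx. The microglial sum was 455 with siLhx4, 521 with siBsx and 467 with siNT. Of 4 tested microglial markers, 0 passed with siLhx4 and 1 (Cd68) rose with siBsx. The 12 pinealocyte markers in the tables, led by the tryptophan hydroxylase Tph1, summed to 471860.2, 580863 and 617175 normalized counts in siLhx4, siBsx and siNT, with 8 lower after siLhx4 and 6 lower and 5 higher after siBsx. That list holds the siRNA targets Lhx4 and Bsx, and without them 6 of 10 were lower after siLhx4 and 5 lower and 4 higher after siBsx. Several channel genes are also expressed by muscle and glia, and the part of these cells in the channel values was not tested. In bulk RNA, fewer cells of a type and less RNA per cell cannot be told apart.

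With siLhx4, the L-type subunits Cacna1f, Cacna1c and Cacna1d fell, as did Cacna2d3 and Cacna2d4, and Cacna2d1 rose. With siBsx, the same L-type subunits fell together with Cacna2d2 and Cacna2d4, and no member rose. Over the 10 genes this gave 5 lower and 1 higher with siLhx4, where 17.7% of all genes tested were called and 9.59% of all 14876 were called lower and 8.07% higher by the authors' DESeq2 Wald test at an adjusted p of 0.05. With siBsx it gave 5 lower and 0 higher, where 17.2% of the genes tested were called, with 9.61% lower and 7.59% higher. Genes with high counts were called lower more often. Among the 6091 genes whose mean reached 1000 normalized counts, 17.0% were called lower with siLhx4 and 15.4% with siBsx. Cacna1f, Cacna1c, Cacna1d and Cacna2d4 were lower in both tables, which share their siNT libraries, and 3.15% of all genes tested were. The median log2 fold change of the 10 genes was -0.27 with siLhx4 and -0.23 with siBsx, and that of all genes tested was 0.003 with siLhx4 and 0.0002 with siBsx.

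**Figure D1:**
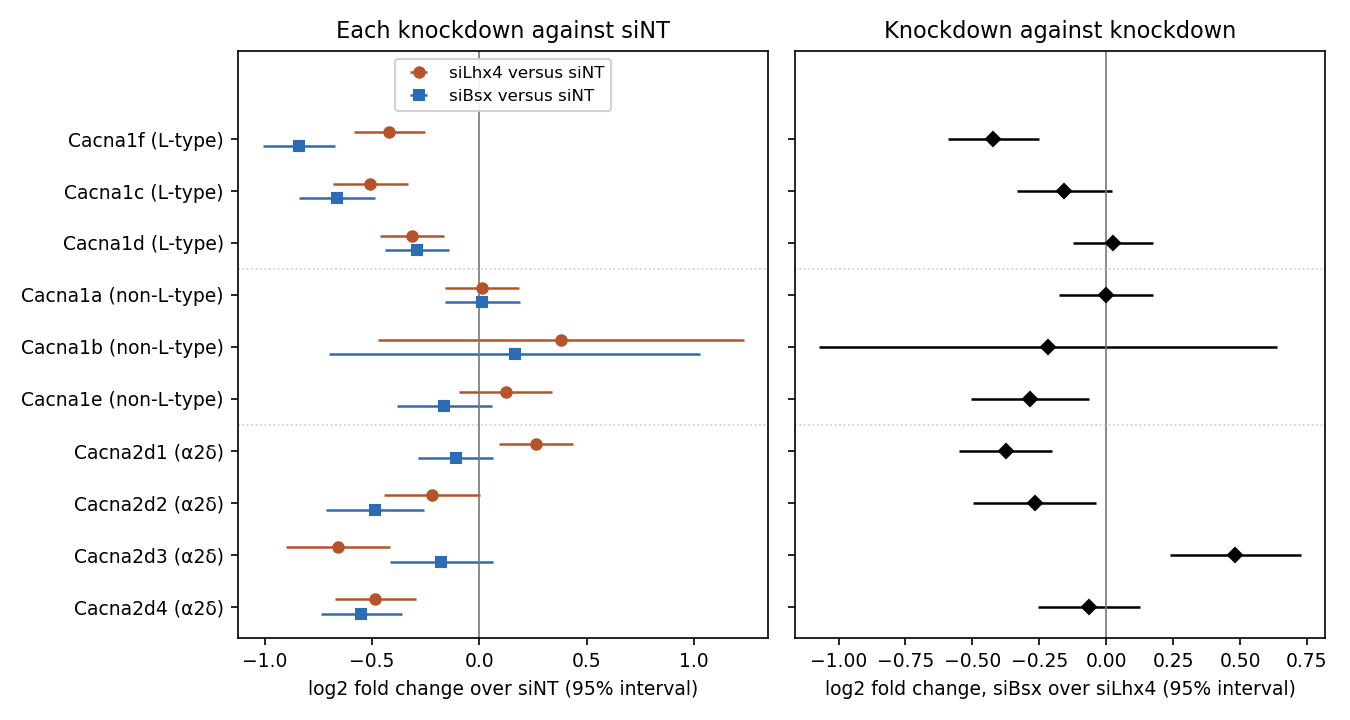
Log2 fold changes of the 10 genes (rows) with 95% intervals. The left panel shows siLhx4 (circles) and siBsx (squares) over siNT, and the right panel siBsx over siLhx4 from the rebuilt test. The 3 L-type genes lie left of 0 in both knockdowns, whereas the intervals of Cacna1a, Cacna1b and Cacna1e over siNT include 0.

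The files used here hold no value per library for the members, so their levels are given as the group means of normalized counts that the deposited means and fold changes imply. The siNT means implied by the 2 tables differed by at most 0.413% in any member. Counts were not divided by transcript length, so levels are compared between groups for 1 gene and never between genes. The SE of each siLhx4 fold change was computed from the deposited fold change and p, and that of each siBsx fold change is the authors' own.

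Cacna1f, the L-type subunit of photoreceptor ribbon synapses, had the largest fall of the 10 genes with siBsx. Its implied means were 1899.7 normalized counts with siLhx4, 1417 with siBsx and 2542 with siNT. In the authors' deposited tables Cacna1f fell by 25.3% with siLhx4 (log2 fold change -0.42 ± 0.084, SE; DESeq2 adjusted p = 1.31e-05) and fell by 44.2% with siBsx (-0.84 ± 0.086; DESeq2 adjusted p = 1.2e-20). Of all genes tested, 6.43% had a lower fold change than Cacna1f with siLhx4 and 1.30% with siBsx. The knockdowns differed for this gene, with siBsx at 74.7% of siLhx4 (log2 difference -0.42 ± 0.086, SE; adjusted p = 1.49e-05 by the Wald test rebuilt from both deposited tables).

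Cacna1c encodes the L-type subunit that is also the main calcium channel of heart and smooth muscle. Implied means were 2689 normalized counts with siLhx4, 2412 with siBsx and 3823 with siNT. It fell by 29.7% with siLhx4 (log2 fold change -0.51 ± 0.090, SE; adjusted p = 4.34e-07, DESeq2, authors' deposited table) and fell by 36.9% with siBsx (-0.66 ± 0.090; adjusted p = 8.6e-12, DESeq2, authors' deposited table). The smooth muscle myosin Myh11, which rose with siLhx4 and fell with siBsx, was at 8932 normalized counts with siLhx4, 2953 with siBsx and 6199.6 with siNT. In the same order, the mural marker Pdgfrb was at 549, 307 and 481. The smooth muscle genes Acta2, at 12.2, 13.7 and 15.3, and Cnn1, at 9.79, 11.3 and 10.2, had few reads and no adjusted p. Of the 5 other mural markers tested, 0 passed with siLhx4 and 1 (Pdgfrb) fell with siBsx. The part of muscle cells in the Cacna1c values was not tested. The interval of the siBsx-over-siLhx4 difference for Cacna1c ran from -0.33 to 0.02 on the log2 scale (rebuilt Wald test, adjusted p = 0.228).

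Cacna1d, an L-type subunit that opens at more negative voltages than its relatives and serves pacemaking and hair cell release, had the smallest fold changes of the L-type genes. It was at 8362 normalized counts with siLhx4, 8514 with siBsx and 10409 with siNT. By the authors' deposited tables it fell by 19.7% with siLhx4 (log2 fold change -0.32 ± 0.076, SE; DESeq2 adjusted p = 0.000436) and fell by 18.2% with siBsx (-0.29 ± 0.076; DESeq2 adjusted p = 0.00154). These falls were not far out in the distribution of all genes, as 10.4% of genes tested had a lower fold change with siLhx4 and 13.8% with siBsx. The siBsx-over-siLhx4 difference had an interval from -0.12 to 0.18 on the log2 scale (rebuilt Wald test, adjusted p = 0.869). The SE of Cacna1d was the smallest of the 10 genes in both tables.

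The set's 3 pore-forming subunits outside the L-type group did not pass in either table. None of these 3 had an unadjusted p under 0.05 in DESeq2's test. Cacna1a, the P/Q-type subunit of fast synapses, had implied means of 1154 normalized counts with siLhx4, 1155 with siBsx and 1144 with siNT. Its percent change in the authors' deposited tables had a 95% interval from -10.6% to 13.7% with siLhx4 and from -10.6% to 13.9% with siBsx (DESeq2 adjusted p of 0.958 and 0.952), which leaves out a fall as large as those of the L-type genes. Cacna1e, the R-type subunit, had 1509.6 normalized counts with siLhx4, 1239 with siBsx and 1388 with siNT. Its log2 fold changes in the authors' deposited tables were 0.12 ± 0.11 with siLhx4 and -0.16 ± 0.11 with siBsx (SE; DESeq2 adjusted p of 0.536 and 0.376). Set against each other, siBsx was at 82.1% of siLhx4 for Cacna1e (log2 difference -0.28 ± 0.11, SE; rebuilt Wald test, adjusted p = 0.0492). Adjustment over all genes without a low-count filter moved that value to 0.0873 and ended the call. Cacna1b, the N-type subunit, had few reads, with 52.1 normalized counts in siLhx4, 45.0 in siBsx and 40.1 in siNT. The interval of its percent change, from -27.9% to 135% with siLhx4 and from -38.5% to 104% with siBsx, holds falls as large as those of Cacna1d, so a change of that size was not detectable at this depth.

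Set against each other, all 3 L-type genes were called lower in both tables and 0 of the set's 3 other pore-forming genes were called in either. Of all genes tested, 3.15% were called lower in both, and 17.7% were called with siLhx4 and 17.2% with siBsx. Most genes tested were thus not called, and Cacna1b had few reads, so the 0 of 3 is not read as a trait of these genes. The L-type fold changes ranged from -0.51 to -0.32 with siLhx4 and from -0.84 to -0.29 with siBsx in log2 units by the authors' deposited tables. Those of the set's other pore-forming genes ranged from 0.01 to 0.38 with siLhx4 and from -0.16 to 0.16 with siBsx. Outside the set, the low-voltage (T-type) pore-forming genes Cacna1g, Cacna1h and Cacna1i were at -0.49, 0.03 and 0.51 with siLhx4. With siBsx they were at -1.62, -1.34 and -0.37. All of these passed the authors' test except Cacna1h with siLhx4. A fall in both knockdowns was thus not particular to L-type genes, as Cacna1g also had it. Because the members were chosen with these values known, the difference between the classes was not tested.

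**Figure D2:**
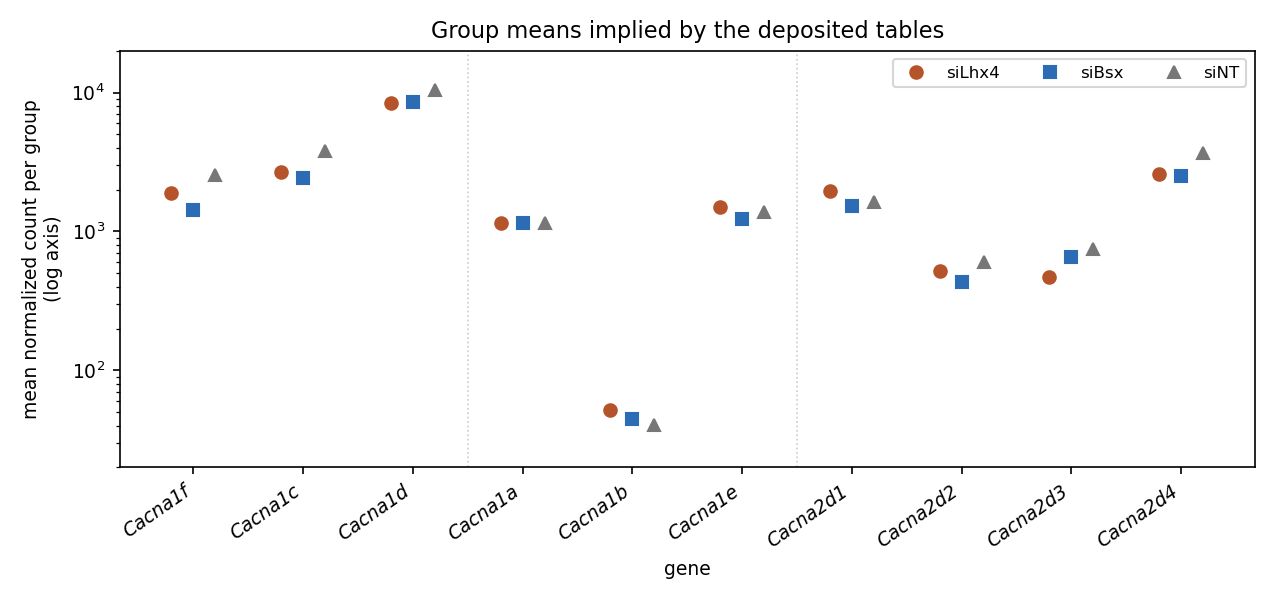
Implied mean normalized count (log axis) of each gene in siLhx4, siBsx and siNT, each point standing for the mean of 3 libraries. The siNT point lies above both knockdowns for Cacna1f (1899.7, 1417 and 2542 in siLhx4, siBsx and siNT), while the points of Cacna1a lie between 1144 and 1155.

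The alpha2delta subunits did not move as 1 group. Cacna2d4, the alpha2delta subunit of photoreceptor terminals, was the 1 of the 4 that fell in both knockdowns. It had implied means of 2607 normalized counts with siLhx4, 2493 with siBsx and 3651 with siNT. According to the authors' deposited tables it fell by 28.6% with siLhx4 (log2 fold change -0.49 ± 0.096, SE; DESeq2 adjusted p = 9.68e-06) and fell by 31.7% with siBsx (-0.55 ± 0.097; DESeq2 adjusted p = 3.25e-07). The interval of the difference between the knockdowns ran from -0.25 to 0.13 on the log2 scale (rebuilt Wald test, adjusted p = 0.72).

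Cacna2d3, an alpha2delta subunit of brain and sensory neurons, had the largest fall of the 10 genes with siLhx4. Its implied means were 469.6 normalized counts with siLhx4, 656 with siBsx and 742 with siNT. By the authors' deposited table it fell by 36.7% with siLhx4 (log2 fold change -0.66 ± 0.12, SE; DESeq2 adjusted p = 2.31e-06), and 2.16% of genes tested had a lower fold change. With siBsx the change in the authors' deposited table was -0.18 ± 0.12 and did not pass (DESeq2 adjusted p = 0.379). The knockdowns differed, with siBsx at 139.6% of siLhx4 (log2 difference 0.48 ± 0.13, SE; rebuilt Wald test, adjusted p = 0.00103).

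Cacna2d1, the widely expressed subunit that gabapentin binds, was the member that rose. Its implied means were 1966 normalized counts with siLhx4, 1515 with siBsx and 1636 with siNT. The authors' deposited table gave 20.2% above siNT with siLhx4 (log2 fold change 0.27 ± 0.088, SE; DESeq2 adjusted p = 0.0182). With siBsx its log2 fold change there was -0.11 ± 0.089 and did not pass (adjusted p = 0.475, DESeq2, authors' deposited table). Between the knockdowns, siBsx was at 77.1% of siLhx4 (log2 difference -0.38 ± 0.089, SE; rebuilt Wald test, adjusted p = 0.000239). Cacna2d1 is also made by muscle and fibroblasts, and it was higher with siLhx4, where Myh11 and the glial and fibroblast sums were higher. Of the 5 other mural markers tested, 0 passed with siLhx4. The part of these cells in the Cacna2d1 values was not tested.

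Cacna2d2, a second gabapentin-binding subunit, known from cerebellar neurons, had 519 normalized counts with siLhx4, 432 with siBsx and 605 with siNT. It fell by 28.6% with siBsx (log2 fold change -0.49 ± 0.12, SE; adjusted p = 0.000392, DESeq2, authors' deposited table). With siLhx4 its log2 fold change of -0.22 ± 0.11 lay outside the threshold (adjusted p = 0.185, DESeq2, authors' deposited table). The difference between the knockdowns was -0.27 ± 0.12 on the log2 scale (SE) and did not pass (rebuilt Wald test, adjusted p = 0.0867), so the call in 1 table alone does not show that the knockdowns differ. Over the 4 alpha2delta genes, siLhx4 gave 2 lower, 1 higher and 1 not past, and siBsx gave 2 lower and 2 not past. Of all genes tested, 9.59% were called lower and 8.07% higher with siLhx4, and 9.61% lower and 7.59% higher with siBsx.

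**Figure D3:**
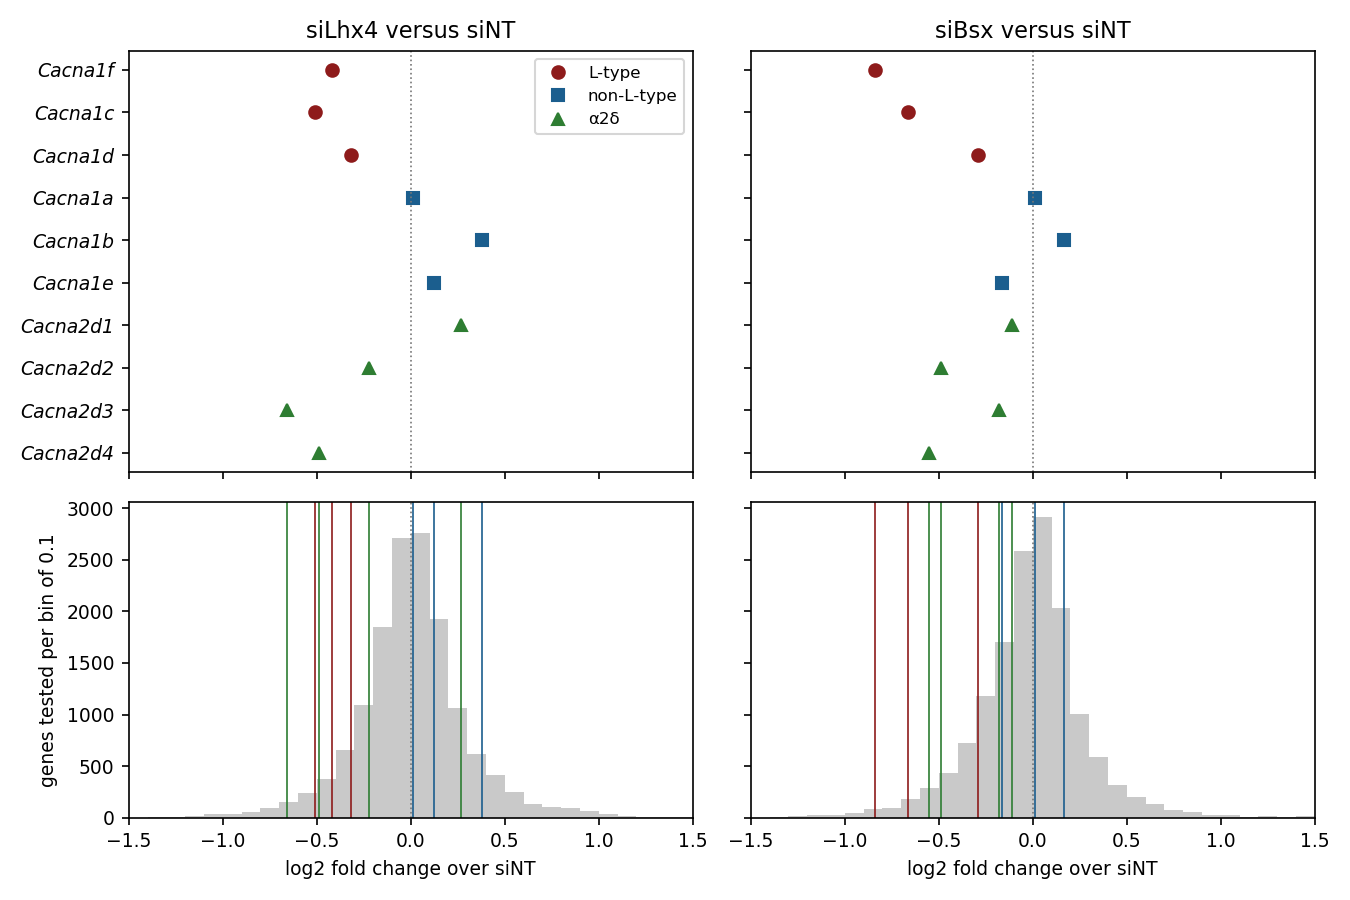
Log2 fold change over siNT of each gene (upper panels, by class) and the number of genes tested per bin of 0.1 (lower panels), for siLhx4 on the left and siBsx on the right. The vertical lines repeat the genes' values: Cacna1f at -0.84 with siBsx has 1.30% of genes tested below it, and Cacna1a lies near the middle of both distributions.

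Between the knockdowns themselves, 3 of the 10 genes were lower with siBsx than with siLhx4 (Cacna1f, Cacna1e and Cacna2d1) and 1 was higher (Cacna2d3), where the rebuilt test called 22.7% of all genes tested, 11.9% lower and 10.8% higher. The 6 others did not pass. The interval of the difference ran from -0.17 to 0.18 on the log2 scale for Cacna1a, and from -1.07 to 0.64 for Cacna1b.

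The members lie close to other genes in RefSeq's GRCr8 annotation, and the annotation and strand setting used for counting are not given in the sources used here. Cacna1c and Cacna2d4 are neighbours on chromosome 4 and the decapping gene Dcp1b, the nearest before Cacna2d4, overlaps Cacna1c. Dcp1b had log2 fold changes of 0.24 ± 0.12 with siLhx4 and 0.32 ± 0.12 with siBsx and did not pass (SE; adjusted p of 0.17 and 0.056, DESeq2, authors' deposited tables). Cacna2d4 overlaps Lrtm2, a leucine-rich repeat gene, and Adipor2, an adiponectin receptor gene. Both fell with siBsx, Lrtm2 by 0.57 ± 0.16 and Adipor2 by 0.51 ± 0.068 on the log2 scale (SE; adjusted p of 0.00377 and 3.68e-12, DESeq2, authors' deposited table). With siLhx4 neither passed (adjusted p of 0.556 and 0.376, DESeq2, authors' deposited table), while Cacna2d4 fell. The overlap was taken over whole gene spans and exons were not compared. Whether any reads of Cacna2d4 were shared with these overlapping genes was not tested, and the strand setting is not known. Cacna1f lies on chromosome X between Syp, the synaptic vesicle gene synaptophysin, and Ccdc22, whose log2 fold changes lay from -0.15 to -0.01 in the authors' deposited tables without passing. Over the 13 tested neighbours of the 10 genes, 1 (Ehmt1, beside Cacna1b) fell with siLhx4 and 2 fell with siBsx. Of all genes tested, 9.59% were called lower with siLhx4 and 9.61% with siBsx. The pore-forming genes also share stretches of sequence with each other, and how reads that match several genes were handled is not given in the sources used here.

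Of 9 tested beta and gamma subunits and channel-bound inhibitors, 0 passed DESeq2's test with siLhx4, where 2 had an unadjusted p under 0.05, and 1 fell with siBsx, beside 17.7% and 17.2% of all genes tested. The beta subunits Cacnb1, Cacnb2 and Cacnb3, which bring the pore to the membrane, did not pass in either of the authors' deposited tables. For Cacnb1 the log2 fold changes were -0.87 ± 0.33 with siLhx4 and -0.86 ± 0.34 with siBsx (SE; adjusted p of 0.0504 and 0.061, DESeq2, authors' deposited tables). The gene that fell with siBsx was Cacng2, stargazin, better known as an AMPA receptor partner, with -0.30 ± 0.086 on the log2 scale (adjusted p = 0.00499, DESeq2, authors' deposited table). Among the T-type pore-forming genes, whose channels open at low voltage, all 3 fell with siBsx by the authors' test. By the authors' deposited tables Cacna1g fell by 28.6% with siLhx4 and fell by 67.5% with siBsx, and Cacna1h was 2.24% above siNT with siLhx4 without passing and fell by 60.6% with siBsx. Cacna1i was 42.5% above siNT with siLhx4 and fell by 22.8% with siBsx, passing in both of the authors' deposited tables. The siBsx call of Cacna1i was lost with a t distribution of 6 degrees of freedom (adjusted p = 0.1001 by the changed Wald test).

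Calmodulin sits on the pore-forming subunits of L-type channels and closes some of these channels, not all, when calcium enters. Its gene Calm3 had values per library. Calm3 had 3512, 3703 and 3404 normalized counts in the siLhx4 libraries, against 4683, 4574 and 4383 in the siNT libraries. Here the siLhx4 libraries were all below the siNT libraries, at 77.8% ± 3.33 of the siNT mean (SD, n = 3; two-sided exact permutation p = 0.1). That SD is of the siLhx4 libraries alone and leaves out the spread of siNT. In the authors' deposited table the log2 fold change of Calm3 with siLhx4 was -0.36 ± 0.054 (SE, adjusted p = 1.16e-09, DESeq2). With siBsx, Calm3 fell by 0.20 ± 0.054 on the log2 scale, and Calm2 did not pass in either comparison (SE; authors' deposited tables).

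**Figure D4:**
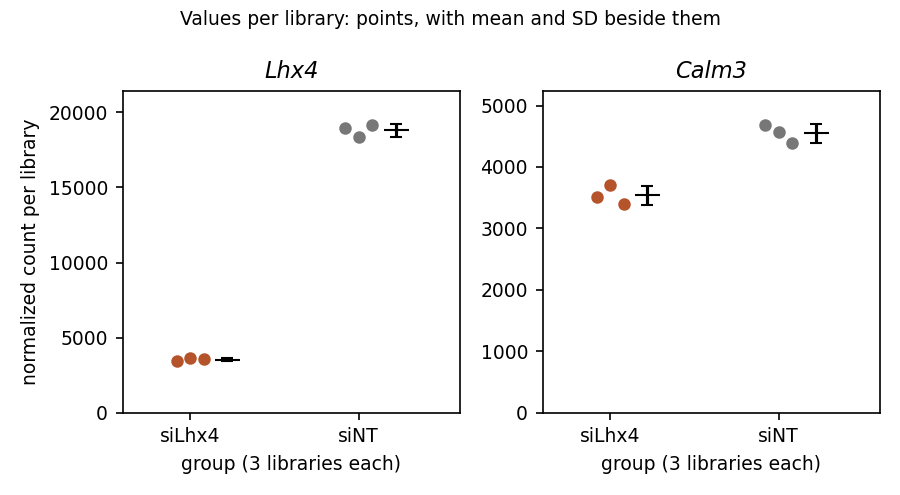
Normalized counts of Lhx4 and Calm3 in each of the 3 siLhx4 and 3 siNT libraries (points), with the mean and SD beside them and axes that start at 0. The groups do not overlap for either gene: Calm3 lies between 3404 and 3703 in siLhx4 and between 4383 and 4683 in siNT.

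Calcium-binding relatives of calmodulin include Cabp1 and Cabp7. Cabp1, which lengthens the opening of some L-type channels by opposing calmodulin, had implied means of 5607 normalized counts with siLhx4, 2722 with siBsx and 8424 with siNT. The authors' deposited tables listed a log2 fold change of -0.59 ± 0.065 with siLhx4 and -1.63 ± 0.066 with siBsx for Cabp1 (SE; DESeq2 adjusted p of 1.16e-17 and 1.24e-130). Cabp7 was at 656 normalized counts with siLhx4, 239 with siBsx and 199.5 with siNT. It rose with siLhx4 by 1.72 ± 0.15 as a log2 fold change (SE; authors' deposited table) and did not pass with siBsx. The knockdowns differed for Cabp7 by -1.46 ± 0.15 on the log2 scale (rebuilt Wald test, adjusted p = 1.44e-20). Cabp4, which binds the Cacna1f channel in photoreceptors, had 115 normalized counts with siLhx4, 113 with siBsx and 129 with siNT and did not pass (adjusted p of 0.769 and 0.716, DESeq2, authors' deposited tables). Of the 7 genes tested among calmodulins and calcium-binding proteins of channels, 2 fell and 1 rose with siLhx4, and 2 fell and 0 rose with siBsx by DESeq2's test. Of all genes tested, 17.7% were called with siLhx4 and 17.2% with siBsx.

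Some active zone proteins tether these channels at release sites. The list used here also holds genes with other roles at the synapse, among them Unc13a, Unc13b, Elfn1 and Lrit3. It moved both ways with siLhx4. Of 19 tested genes, 3 fell (Unc13a, Unc13b and Ppfia2) and 5 rose (Elfn1, Rimbp2, Lrit3, Ctbp2 and Bsn) with siLhx4, and 2 fell (Elfn1 and Lrit3) and 2 rose (Ppfia4 and Ctbp2) with siBsx. By DESeq2's test 17.7% of all genes tested were called with siLhx4 and 17.2% with siBsx. The priming factor Unc13b had 3068 normalized counts with siLhx4, 4696 with siBsx and 5084 with siNT, a log2 fold change of -0.73 ± 0.059 with siLhx4 in the authors' deposited table. Rimbp2, which links calcium channels to the release machinery, rose by 0.42 ± 0.091 with siLhx4 in log2 units by the authors' deposited table. Rims2, a scaffold that binds channel subunits, did not pass with either siRNA (adjusted p of 0.474 and 0.42, DESeq2, authors' deposited tables). These genes, apart from Unc13b, were named after their values were seen.

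Among genes that clear calcium from the cell, 2 fell in both knockdowns by the authors' test, as did 3.15% of all genes tested. The plasma membrane pump Atp2b4 had 1789 normalized counts with siLhx4, 1499 with siBsx and 2256 with siNT. It fell by 20.7% with siLhx4 and fell by 33.5% with siBsx in the authors' deposited tables (DESeq2 adjusted p of 0.000489 and 2.89e-11). The sodium-calcium exchanger Slc8a2 had 427 normalized counts with siLhx4, 271 with siBsx and 584 with siNT. It fell by 26.8% with siLhx4 and fell by 53.6% with siBsx in the authors' deposited tables (DESeq2 adjusted p of 0.00275 and 7.71e-16). With a t distribution of 6 degrees of freedom both lost the siLhx4 call (adjusted p of 0.0836 for Atp2b4 and 0.113 for Slc8a2 by the changed Wald test). Over the 19 tested genes of extrusion and stores, 4 fell (Atp2b4, Slc8a2, Itpr1 and Stim2) and 2 rose (Atp2b1 and Atp2a2) with siLhx4, where 17.7% of all genes tested were called. With siBsx 4 fell (Atp2b4, Slc8a2, Itpr3 and Orai1) and 3 rose (Atp2a2, Itpr1 and Stim2), where 17.2% of all genes tested were called. The release channel Itpr1 and the store sensor Stim2 were thus lower with siLhx4 and higher with siBsx. The median of this list was -0.07 with siLhx4 and -0.18 with siBsx on the log2 scale, beside medians near 0 for all genes tested. Of the 19 genes, 13 did not pass with siLhx4 and 12 did not with siBsx, and a shift of the list was not tested.

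**Figure D5:**
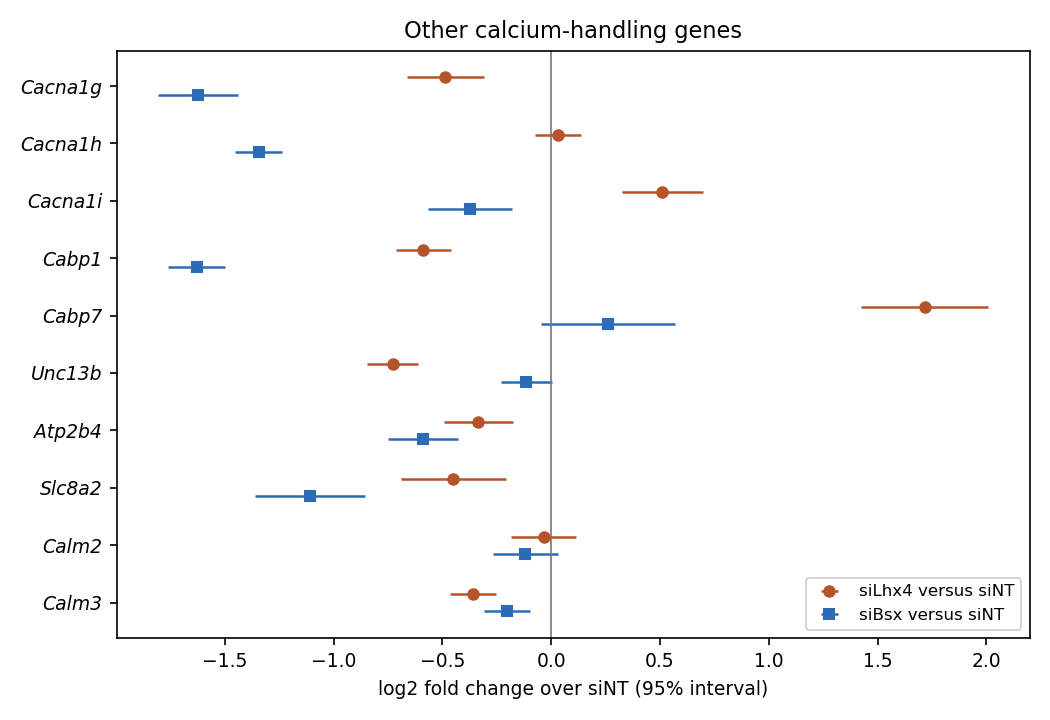
Log2 fold change over siNT with 95% intervals for calcium-handling genes outside the family: those past an adjusted p of 0.05 with a log2 size of at least 0.5 in either table, and Calm2 and Calm3. Circles show siLhx4 and squares siBsx. Cabp1 and Slc8a2 lie left of 0 in both, and Cabp7 lies at 1.72 with siLhx4.

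The calls above rest on the authors' normal reference for the Wald statistic. A t distribution with 6 degrees of freedom uses only the number of libraries. Under it 2 of the 6 members called with siLhx4 passed (Cacna1c and Cacna2d3) and 3 of the 5 with siBsx (Cacna1f, Cacna1c and Cacna2d4). In all, 697 genes passed with siLhx4 and 795 with siBsx. With 4 degrees of freedom 0 members passed with siLhx4 and 0 with siBsx, where 6 and 5 members had an unadjusted p under 0.05. That reference passed 0 of all genes tested with siLhx4 (Lhx4 itself set aside) and 36 with siBsx.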

How the data were processed

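Total RNA of 9 pinealocyte samples was made into libraries with ribosomal RNA depletion and sequenced on 1 flow cell, per the labels' protocols. The build rn6, DESeq2 1.16.1, STAR 2.5.4a, Subread 1.5.2 and featureCounts are named, per the submitters' processing notes. The signal values the authors deposited are counts scaled by each library's size factor, as means over 6 libraries for all genes and per library for 14 genes. The deposited log2 values are fold changes over siNT and, for siBsx, standard errors, and the deposited score is their Wald statistic. The deposited p-values are unadjusted and Benjamini-Hochberg adjusted, the latter for genes whose mean reached 19.8 (siLhx4) or 20.8 (siBsx).

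The members, lists and tests were chosen with earlier results of these data known. Members were taken by symbol. All 10 are named, and from the partner lists each gene past an adjusted p of 0.05 with a log2 size of at least 0.5. Other list genes enter by counts, and 1 gene was left out of the lists and their counts and is not reported here. Standard errors of siLhx4 were computed from the log2 fold change and p. Group means were computed from the deposited mean and fold change. The siBsx-over-siLhx4 test (two-sided Wald, adjusted over 14876 genes) used dispersions solved from the siBsx standard errors with all size factors set to 1. It predicted the siLhx4 standard errors with a median ratio of 1.01, and siBsx size factors were not used. The siNT means of the tables agreed within a ratio of 0.995 to 1.01 over 10897 genes with a mean above 200. Relative depth was read from the 14 genes, whose values became whole numbers (tolerance 1e-04) with size factors from 0.761 to 1.46, and library totals were not used. Values per library were compared by exact permutation of log2(normalized count + 1). Python 3.11.15, scipy 1.17.1 and pandas 2.3.3 were used.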

Additional observations from a re-analysis of the deposited data

How the results depend on the processing

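The number of members past an adjusted p was within 1.5 times of the reported one under a threshold of 0.01, no low-count filter, a mean of at least 50 normalized counts and centring on the median of all genes. When 6 degrees of freedom replaced the normal reference, 2 of 6 members passed with siLhx4, 3 of 5 with siBsx and 1 of 4 between siBsx and siLhx4, among 697, 795 and 1307 genes in all. With 4 degrees of freedom 0, 0 and 0 members passed, among 0, 36 and 291 genes (without Lhx4 itself for siLhx4), where 6, 5 and 3 members had an unadjusted p under 0.05. These references use only the number of libraries. Of the 8 partner genes named by rule, 6 degrees of freedom ended the siLhx4 calls of Atp2b4 and Slc8a2, the siBsx call of Cacna1i and the siBsx-over-siLhx4 call of Atp2b4. Among the same 8 genes, 4 degrees of freedom ended 7 siLhx4 calls, which were all they had, 3 siBsx calls and 2 siBsx-over-siLhx4 calls. At 0.01 the siLhx4 call of Cacna2d1 (adjusted p = 0.0182) and the siBsx-over-siLhx4 calls of Cacna1e and Atp2b4 were lost. The near-0 difference of Cacna1a between the knockdowns turned to -0.0014 with centring. Leaving out 1 library at a time, the log2 differences between siLhx4 and siNT ranged from -2.43 to -2.39 for Lhx4 and from -0.39 to -0.33 for Calm3. Without a pseudocount they kept their direction. With the replicate number as a block they were -2.41 and -0.36 (exact sign-flip p = 0.25, the smallest 3 pairs allow). Same-numbered libraries had correlations of their deviations of 0.19, -0.12 and -0.03 over 14 genes, so the numbers are not shown to pair them. No paired analysis was possible for the members because their values per library were not used here, and leaving out single libraries was not run for them for the same reason.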
